A study of Drosophila melanogaster with 9 samples.

Results

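The genes vkg, Col4a1, Glt, Idgf6, prc and Pvr of Drosophila melanogaster are described here, 6 of the 11982 genes with a named probe set on the arrays. They encode matrix or secreted proteins made by haemocytes, fat body or pericardial cells, and 1 receptor of haemocytes. The genes were chosen by their log2 signals in these same 3 genotype groups, so their levels and differences are given as a description, with no test. Each had 1 probe set.

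RNA came from embryonic cells sorted for green fluorescent protein and was hybridised to Affymetrix expression arrays, with 3 arrays in each of 3 groups. Embryos of every group carried twi-GAL4, which drives expression in the mesoderm, and the reporter UAS-2EGFP, and developed at 25 °C until stage 11 or the start of stage 12. Control embryos carried neither deletion. The CHES-1-like null carried Df(1)CHES-1-like1, a deletion of the Forkhead gene CHES-1-like. The jumu deficiency carried Df(3R)Exel6157, a chromosomal deficiency that takes out the Forkhead gene jumu and can remove other genes with it. Its titles write the deficiency on both homologues, so these embryos were homozygous for it. In its titles the driver and the reporter lie on different homologues, whereas they are written together in the other groups, so the arrangement or copy number of the transgenes may differ between groups. Cells of these groups are called CHES-1-like null cells and jumu-deficient cells below. Whether replicates are separate embryo collections is not in the labels, and the p-values then cover only the spread between arrays, which may be technical.

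Collagen IV is the main collagen of basement membranes, and in the fly its chains are encoded by vkg and Col4a1, a neighbouring gene pair. Haemocytes, the migratory blood cells that arise from head mesoderm, and the fat body secrete most of it, together with the heparan sulphate proteoglycan Perlecan, SPARC and the glycoprotein glutactin. Pericardin, encoded by prc, is a collagen-like protein that surrounds the heart tube and its pericardial cells. Idgf6 is a secreted chitinase-like protein of the imaginal disc growth factor family, and Pvr is a receptor tyrosine kinase of the PDGF and VEGF receptor family that haemocytes need for survival and migration.

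Values are log2 signals per probe set. The signal of the deleted gene checked the labels. In CHES-1-like null cells the brighter CHES-1-like probe set read 4.04 ± 0.25 (SD, n = 3), against 12.01 ± 0.03 in control arrays, and in jumu-deficient cells the jumu probe set read 8.13 ± 0.12 against 10.52 ± 0.06, so a signal above background remained there. The other CHES-1-like probe set read 6.32 ± 0.45 against 8.12 ± 0.18, 3.49-fold lower in the null. Array medians ran from 5.42 to 5.51. Chemoreceptor genes, with 125 odorant or gustatory receptor probe sets, served as an empirical background and had a 95th percentile of 5.28, the background level used throughout, and all 6 genes were above it in every group mean. Of 13 mesoderm markers, 9 were measured and all were above that level in every group, as were the 14 measured epidermis and trachea markers, 13 neural and glial markers and 7 endoderm and salivary gland markers. Transcripts of genes listed for other tissues were thus present in every group. Such a gene need not be exclusive to its tissue, and Hnf4 stands in both the endoderm and the fat body list. Mixtures of cells were measured throughout, so that more cells of a type and more RNA per cell cannot be told apart.

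All 6 genes had their 3 jumu deficiency arrays above their 3 control arrays. Over the whole table, 23.7% of probe sets had jumu deficiency arrays that did not overlap control and were higher, and the choice of the genes on these values means that nothing is read from the count. The median difference of the 6 genes was 1.40 on the log2 scale, with a range from 0.52 for Pvr to 2.01 for prc. Counted from the most positive difference among 18769 probe sets, prc stood at place 70, vkg at 120, Glt at 128, Idgf6 at 178, Col4a1 at 195 and Pvr at 702. In CHES-1-like null cells the 6 genes divided, with 4 above control without overlap and 2 below, against 22.3% and 20.4% of all probe sets. Between the mutants, 5 of the 6 were higher in jumu-deficient cells without overlap, against 21.8% of all probe sets.

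The genes fell into 3 patterns across the groups. The collagen chains and Idgf6 were lowest in control, intermediate in CHES-1-like null cells and highest in jumu-deficient cells. Glt and prc were lowest in CHES-1-like null cells. Pvr was at nearly the same level in both mutants, above control.

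**Figure D1:**
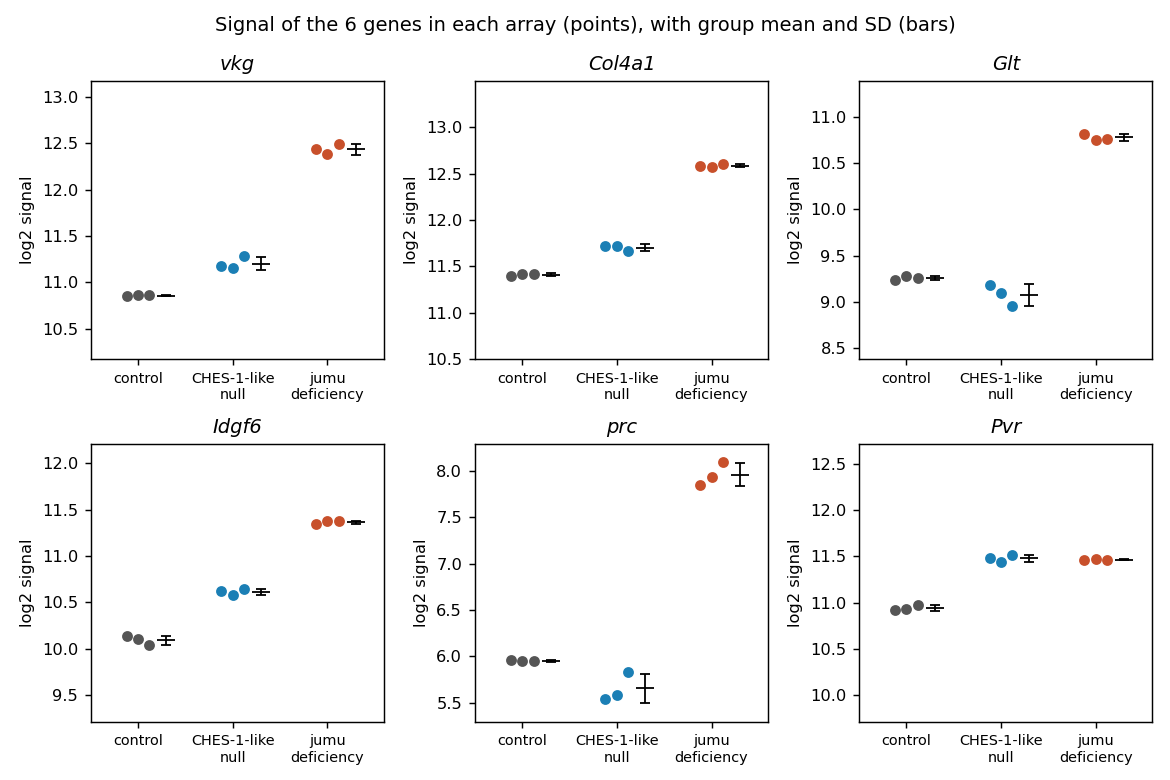
Log2 signal (vertical axis) of vkg, Col4a1, Glt, Idgf6, prc and Pvr in the 9 arrays, 1 panel a gene. Points are arrays, and bars give the mean and SD of the 3 arrays of control, CHES-1-like null and jumu deficiency. The jumu deficiency arrays lie above control in every panel, the CHES-1-like null arrays lie below control for Glt and prc, and the mutants overlap for Pvr.

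The collagen IV gene vkg, named viking, had control signals of 10.85, 10.86 and 10.86 in replicates 1 to 3. In CHES-1-like null cells they were 11.17, 11.15 and 11.28, and in jumu-deficient cells 12.43, 12.38 and 12.50. The 3 groups did not overlap, and each mutant array was above each control array. The jumu deficiency mean of 12.44 ± 0.06 (SD, n = 3) was 1.58 ± 0.05 (SE) above the control mean of 10.86 ± 0.0069, a 2.99-fold difference. The CHES-1-like null mean of 11.20 ± 0.07 was 0.35 ± 0.05 above control, or 1.27-fold. The step from the CHES-1-like null to the jumu deficiency was 1.24 ± 0.05, the larger part of the difference between control and the jumu deficiency.

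Col4a1, the other collagen IV chain, had control signals of 11.40, 11.42 and 11.42, CHES-1-like null signals of 11.72, 11.72 and 11.66 and jumu deficiency signals of 12.58, 12.57 and 12.60. Its groups were in the same order as those of vkg and again did not overlap. The jumu deficiency mean of 12.58 ± 0.02 (SD, n = 3) was 1.17 ± 0.04 (SE) above the control mean of 11.41 ± 0.01, a 2.26-fold difference. The CHES-1-like null mean of 11.70 ± 0.03 was 0.29 ± 0.04 above control, or 1.22-fold. In each mutant the difference from control was of the same sign for both chains, and its value was smaller for Col4a1. The annotation of Release 6 plus ISO1 MT places Col4a1 and vkg next to each other. In that annotation none of the 6 genes lies on the chromosome arm of jumu or of CHES-1-like.

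Glt encodes glutactin, a sulphated glycoprotein of embryonic basement membranes. Its control signals were 9.24, 9.28 and 9.26, its CHES-1-like null signals 9.19, 9.10 and 8.95, and its jumu deficiency signals 10.82, 10.75 and 10.76. The jumu deficiency arrays stood well apart from the rest, whereas the CHES-1-like null arrays lay just under control, with replicate 3 the lowest. The jumu deficiency mean of 10.78 ± 0.03 (SD, n = 3) was 1.52 ± 0.06 (SE) above the control mean of 9.26 ± 0.02, or 2.86-fold. The CHES-1-like null differed from control by −0.18 ± 0.06, and the closest arrays of these groups were 9.19 and 9.24. Between the mutants the difference was 1.70 ± 0.06, or 3.24-fold.

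Pericardin, the product of prc, is deposited around the heart tube. Control signals of the gene were 5.96, 5.95 and 5.95, CHES-1-like null signals 5.54, 5.59 and 5.84, and jumu deficiency signals 7.85, 7.94 and 8.10. The control arrays were nearly equal, the CHES-1-like null arrays were spread more widely with replicate 3 nearest to control, and the jumu deficiency arrays were far above both. The jumu deficiency mean of 7.96 ± 0.12 (SD, n = 3) was 2.01 ± 0.08 (SE) above the control mean of 5.95 ± 0.0066, a 4.02-fold difference and the largest of the 6. The CHES-1-like null mean of 5.66 ± 0.16 differed from control by −0.30 ± 0.08. As these 2 group means lie close to the background level of 5.28, the fold differences of prc against them may be understated.

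Idgf6, the chitinase-like growth factor gene, had control signals of 10.14, 10.10 and 10.04, CHES-1-like null signals of 10.62, 10.58 and 10.64 and jumu deficiency signals of 11.35, 11.37 and 11.38. Its groups followed the order of the collagen genes with no overlap. The jumu deficiency mean of 11.37 ± 0.02 (SD, n = 3) was 1.27 ± 0.04 (SE) above the control mean of 10.09 ± 0.05, or 2.42-fold. The CHES-1-like null mean of 10.62 ± 0.03 was 0.52 ± 0.04 above control, or 1.44-fold, a larger difference than that of either collagen chain in this mutant. The mutants differed from each other by 0.75 ± 0.04.

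Pvr, the haemocyte receptor gene, had control signals of 10.92, 10.93 and 10.97. Its CHES-1-like null signals were 11.48, 11.44 and 11.51, and its jumu deficiency signals 11.46, 11.47 and 11.46. Every mutant array was above every control array, and the arrays of the mutants overlapped, the only such case among the 18 differences of these genes. The mean was 10.94 ± 0.03 (SD, n = 3) in control, 11.48 ± 0.04 in CHES-1-like null cells and 11.46 ± 0.0048 in jumu-deficient cells. The differences from control were 0.54 ± 0.04 (SE), or 1.45-fold, and 0.52 ± 0.04, or 1.44-fold. The mutants differed by −0.015 ± 0.039, less than the spread between the CHES-1-like null arrays.

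Likeness between profiles was measured as the root mean square difference of the log2 signals over the 9 arrays after each gene's control mean was subtracted. Among the 6 genes, Col4a1 and Idgf6 were nearest, at 0.151, and prc and Pvr farthest, at 0.988. The collagen genes vkg and Col4a1 differed by 0.243, and vkg was nearer to Idgf6, at 0.209. Glt and prc, the genes that were lowest in CHES-1-like null cells, differed by 0.326. Among 7621 other genes whose mean over the 9 arrays was above background, the nearest to vkg was CG1092 at 0.072, followed by TM4SF at 0.099, and the nearest to Col4a1 was Sirup at 0.055, followed by GstS1 at 0.065. Npc2a, which encodes a sterol-binding protein of the Niemann-Pick type C family, was nearest to Idgf6 at 0.041. The nearest profiles to Glt and prc were less close, CG14932 at 0.121, whose control and CHES-1-like null means of 5.22 and 5.00 were under the background level, and the odorant-binding protein gene Obp44a at 0.162. Pvr had the glypican gene dlp and CNPYb at 0.048 and the homeobox gene Optix at 0.049.

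The signals of the other genes that build, fold or bind this matrix were tested with limma, on the brightest probe set of each gene and with p-values adjusted over all probe sets. A gene is called here at an adjusted p under 0.05. Of all 11982 genes, 17.6% were called higher and 21.0% lower in jumu-deficient cells against control, 17.1% higher and 18.6% lower in CHES-1-like null cells against control, and 21.2% higher and 21.1% lower in jumu-deficient cells against the CHES-1-like null. The median difference of all genes was 0.013, 0.025 and 0.001 in the same order. With each array centred on its median, 31.4% of the called probe sets were higher in jumu-deficient cells against control, in place of 46.1%. Each list below is set against these shares as a description, and the comparisons with control share the control arrays. Some lists share genes, with srp and Lsp2 in the haemocyte and fat body lists and svp in the fat body and pericardial lists. Hnf4 is in the fat body and endoderm lists, and zfh1 in the pericardial and mesoderm lists.

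The basement membrane list held 19 genes other than the 6, of which 18 were measured. In jumu-deficient cells 6 rose and 4 fell against control, in CHES-1-like null cells 2 rose and 5 fell, and between the mutants 8 were higher in jumu-deficient cells and 0 lower by limma (1 lower at an unadjusted p under 0.05). The median differences were 0.05, −0.09 and 0.16.

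The Perlecan gene trol had signals of 7.04, 6.87 and 7.01 in control, 7.12, 6.97 and 6.90 in CHES-1-like null cells and 8.44, 8.59 and 8.53 in jumu-deficient cells. The control and CHES-1-like null arrays overlapped, and the jumu deficiency arrays lay above both. The gene rose in jumu-deficient cells by 1.55 ± 0.07 (SE), 2.92-fold (limma adjusted p = 2.82e-07), and differed by 0.02 in CHES-1-like null cells (adjusted p = 0.867). It has 7 other probe sets, 3 of them called higher in jumu-deficient cells.

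SPARC, a collagen-binding glycoprotein, followed the order of the collagen genes. Its signals were 10.72, 10.78 and 10.75 in control, 10.94, 10.97 and 10.91 in CHES-1-like null cells and 11.63, 11.53 and 11.62 in jumu-deficient cells. It rose by 0.84 ± 0.04 (SE) in jumu-deficient cells (limma adjusted p = 6.28e-07) and by 0.19 ± 0.04 in CHES-1-like null cells (adjusted p = 0.00881), so all 3 groups were separate.

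The genes loh and Tig followed the order of Glt and prc. The ADAMTS-like gene loh encodes lonely heart, a protein that retains Pericardin at the heart, and Tig encodes tiggrin, an integrin ligand. Signals of loh were 6.48, 6.35 and 6.52 in control, 6.17, 6.15 and 6.25 in CHES-1-like null cells and 7.31, 7.34 and 7.48 in jumu-deficient cells. It rose by 0.93 ± 0.06 (SE) in jumu-deficient cells (limma adjusted p = 4.28e-06) and fell by 0.26 ± 0.06 in CHES-1-like null cells (adjusted p = 0.0118). Tig rose by 0.47 ± 0.05 in the former (limma adjusted p = 5.07e-05) and fell by 0.23 ± 0.05 in the latter (adjusted p = 0.00397). Both genes were thus on opposite sides of control in the mutants, and between the mutants they differed by 1.19 ± 0.06 and 0.70 ± 0.05.

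The genes Ndg, Loxl1 and mspo fell in both mutants. Nidogen, encoded by Ndg, links laminin to collagen IV, and its gene fell by 0.61 ± 0.04 (SE) in CHES-1-like null cells (limma adjusted p = 5.98e-06) and by 0.12 ± 0.04 in jumu-deficient cells (adjusted p = 0.0464). The lysyl oxidase gene Loxl1, whose product cross-links collagens, fell by 0.66 ± 0.08 and 0.71 ± 0.08 in the same order (limma adjusted p = 0.00029 and 0.000172). The spondin family gene mspo fell by 0.45 ± 0.08 and 0.39 ± 0.08. The papilin gene Ppn rose by 0.20 ± 0.04 in each mutant (limma adjusted p = 0.00271 and 0.00256).

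Laminin genes encode the other main network of basement membranes. Of the 4 laminin genes, 1 was called against control, in jumu-deficient cells. The alpha chain gene wb was 0.23 ± 0.05 (SE) higher there (limma adjusted p = 0.00666), and its 2 other probe sets were not called. LanA, the other alpha chain gene, differed from control by 0.09 in jumu-deficient cells (limma adjusted p = 0.0858) and −0.09 in CHES-1-like null cells. LanB1 differed by 0.04 and LanB2 by 0.06 in jumu-deficient cells (limma adjusted p = 0.453 and 0.289). Between the mutants LanA, LanB1 and wb were higher in jumu-deficient cells, by 0.18, 0.14 and 0.31 (limma adjusted p = 0.00314, 0.0182 and 0.00103).

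**Figure D2:**
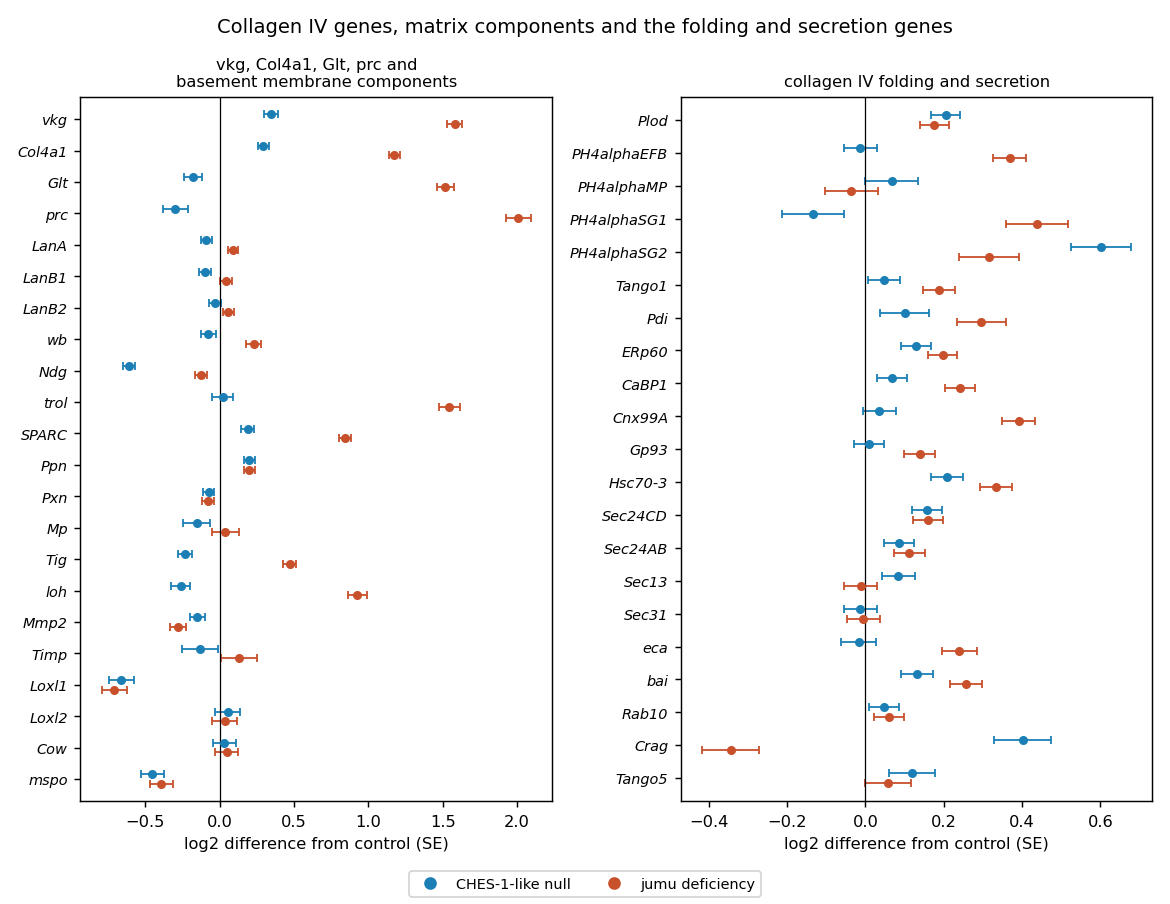
Log2 difference from control (horizontal axis) with its SE in CHES-1-like null cells and the jumu deficiency, for vkg, Col4a1, Glt and prc with the basement membrane genes (left) and for the collagen folding and secretion genes (right, on a narrower axis). Points right of 0 are higher than control. Beside the 4 chosen genes, trol, loh and SPARC lie farthest right in jumu-deficient cells, at 1.55, 0.93 and 0.84.

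Collagen IV chains are hydroxylated, folded and packed for export in the secretory pathway. Of 25 listed genes for these steps 21 were measured, and 14 rose and 1 fell in jumu-deficient cells, 7 rose and 0 fell in CHES-1-like null cells by limma (0 also at an unadjusted p under 0.05), and 10 were higher and 2 lower in jumu-deficient cells than in those lacking CHES-1-like. The median differences were 0.19, 0.08 and 0.07, against 1.58, 0.35 and 1.24 for vkg. Pdi, called higher in jumu-deficient cells than in both other groups, had means under the background level in every group. The calnexin gene Cnx99A rose by 0.39 ± 0.04 (SE) in jumu-deficient cells (limma adjusted p = 9.24e-05). PH4alphaEFB, which encodes a prolyl 4-hydroxylase subunit, rose by 0.37 ± 0.04 (limma adjusted p = 0.000123) and differed by −0.01 in CHES-1-like null cells. The ER chaperone gene Hsc70-3 rose in both mutants, by 0.33 ± 0.04 and 0.21 ± 0.04 (limma adjusted p = 0.000225 and 0.004).

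The lysyl hydroxylase gene Plod rose by 0.18 ± 0.04 (SE) in jumu-deficient cells and 0.21 ± 0.04 in CHES-1-like null cells (limma adjusted p = 0.00557 and 0.0025). The gene bai, which encodes a p24 cargo receptor, rose by 0.26 ± 0.04 in jumu-deficient cells (limma adjusted p = 0.000899). Tango1, needed for export of bulky cargo such as collagen, was 0.19 higher in jumu-deficient cells (limma adjusted p = 0.00645). Crag, which acts in polarised secretion of basement membrane proteins, rose by 0.40 ± 0.07 in CHES-1-like null cells (limma adjusted p = 0.00238) and was the list gene that fell in jumu-deficient cells, by 0.34 ± 0.07 (adjusted p = 0.00539). With each array centred on its median, the list held 9 higher and 1 lower genes in jumu-deficient cells and 4 higher and 0 lower in CHES-1-like null cells. Between the mutants, 5 were higher with that centring and 6 without CHES-1-like null replicate 3, in place of 10.

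The haemocyte list held 29 genes besides Pvr, of which 28 were measured. In jumu-deficient cells 15 rose and 4 fell, in CHES-1-like null cells 8 rose and 6 fell, and between the mutants 11 were higher and 2 lower in jumu-deficient cells. Median differences were 0.20, 0.10 and 0.09. The summed signal of the list, on the log2 scale, was 15.62 to 15.63 in control arrays, 15.63 to 15.66 in CHES-1-like null cells and 15.87 to 15.90 in jumu-deficient cells. Of the genes called against control in jumu-deficient cells, 3 had means under the background level in both groups. With each array centred on its median, 12 rose and 4 fell in jumu-deficient cells, and 5 rose and 6 fell in CHES-1-like null cells.

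Genes of phagocytic plasmatocytes were among those that rose in jumu-deficient cells. NimB4, a secreted Nimrod protein gene, had signals of 7.46, 7.52 and 7.33 in control, 7.60, 7.51 and 7.44 in CHES-1-like null cells and 9.21, 9.12 and 9.28 in jumu-deficient cells. It rose by 1.77 ± 0.07 (SE), or 3.41-fold, in jumu-deficient cells (limma adjusted p = 7.99e-08). The phagocytosis receptor gene NimC1 had a mean of 4.81 in control, under the background level, and rose to 6.70 in jumu-deficient cells, by 1.89 ± 0.10 (limma adjusted p = 7.19e-07). In CHES-1-like null cells NimB4 and NimC1 differed from control by 0.08 and 0.15 (limma adjusted p = 0.415 and 0.3). The NimC1 mean in CHES-1-like null cells, 4.96, was also under the background level.

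Other haemocyte genes went in several directions. The scavenger receptor gene Sr-CI rose by 0.66 ± 0.05 (SE) in jumu-deficient cells and 0.35 ± 0.05 in CHES-1-like null cells (limma adjusted p = 1.09e-05 and 0.000695). The engulfment adaptor gene ced-6 rose by 0.77 ± 0.06 and 0.65 ± 0.06 (limma adjusted p = 1.01e-05 and 3.57e-05), and the mutants differed by 0.11 ± 0.06 (adjusted p = 0.195). The GATA gene srp, required for haemocyte and fat body formation, differed by 0.06 in jumu-deficient cells and 0.16 in CHES-1-like null cells (limma adjusted p = 0.484 and 0.0612). In the same order, gcm was higher by 0.50 ± 0.05 and 0.28 ± 0.05 (limma adjusted p = 4.26e-05 and 0.00167). The gene ush was 0.16 ± 0.04 higher in each mutant (limma adjusted p = 0.0156 and 0.0174). Against control, gcm2 was called higher in CHES-1-like null cells only (limma adjusted p = 0.0462). In jumu-deficient cells crq and drpr rose by 0.69 ± 0.09 and 0.37 ± 0.04 (limma adjusted p = 0.00024 and 9.3e-05). The Nimrod gene NimC3 fell by 0.44 ± 0.07 in CHES-1-like null cells and rose by 0.37 ± 0.07 in jumu-deficient cells (limma adjusted p = 0.00093 and 0.00235). Tep4, a thioester protein gene, fell by 0.13 ± 0.04 and 0.18 ± 0.04 in the same order (limma adjusted p = 0.0367 and 0.00737). The haemocyte markers Hml, eater and He were not called against control in either mutant, and eater and He were under the background level in every group.

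Genes of crystal cells, the haemocytes that make prophenoloxidase, had another order. PPO1 signals were 12.48, 12.40 and 12.37 in control, 11.55, 11.60 and 11.56 in CHES-1-like null cells and 12.45, 12.45 and 12.52 in jumu-deficient cells. PPO1 fell by 0.84 ± 0.05 (SE) and PPO2 by 0.86 ± 0.04 in CHES-1-like null cells (limma adjusted p = 1.48e-06 and 1.08e-06), where all their arrays were under control. In jumu-deficient cells they differed from control by 0.06 and 0.13 (limma adjusted p = 0.393 and 0.0547). The Runx gene lz, which specifies crystal cells, fell by 1.05 ± 0.07 in CHES-1-like null cells (limma adjusted p = 4.44e-06) to a mean of 4.96, under the background level, and was 0.23 ± 0.07 higher in jumu-deficient cells (adjusted p = 0.0278). PPO3, the remaining prophenoloxidase gene, is not taken here as a crystal cell gene. Its signal was under the background level in every group and was 0.35 lower in jumu-deficient cells (limma adjusted p = 0.0147).

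**Figure D3:**
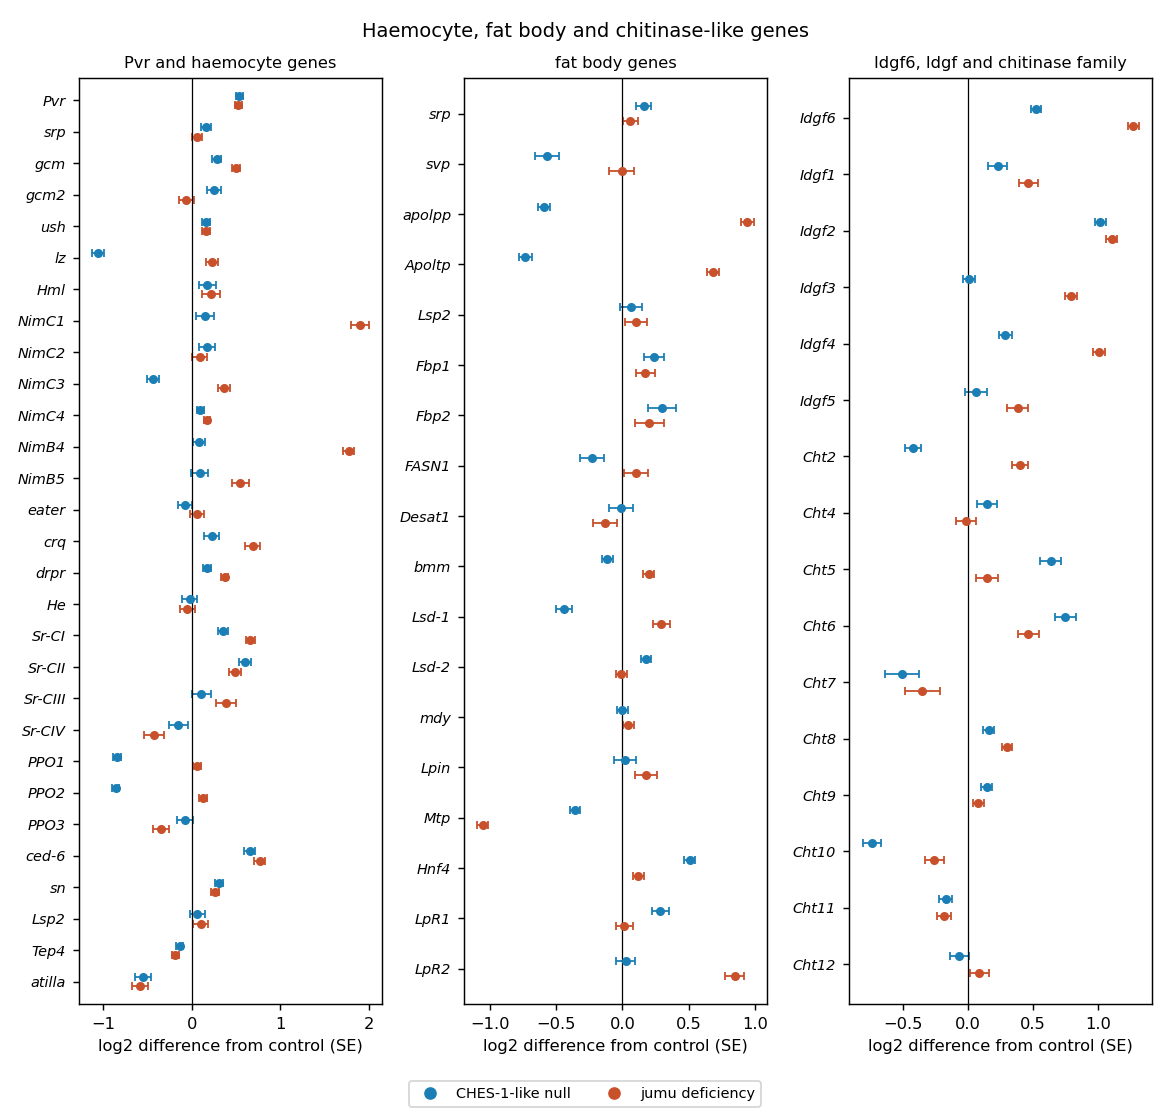
Log2 difference from control (horizontal axis) with its SE in CHES-1-like null cells and the jumu deficiency, for Pvr and Idgf6 beside the haemocyte, fat body, and Idgf and chitinase genes. NimC1 and NimB4 lie far right in jumu-deficient cells, and lz, PPO1 and PPO2 lie left of 0 in CHES-1-like null cells.

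Of 18 listed genes for Pvr ligands and signalling, 10 were measured. None of the 3 ligand genes was called higher than control in both mutants. Pvf1 signals were 7.38, 7.27 and 7.39 in control, 7.64, 7.63 and 7.34 in CHES-1-like null cells and 6.42, 6.26 and 6.44 in jumu-deficient cells. Pvf1 fell by 0.97 ± 0.09 (SE) in jumu-deficient cells (limma adjusted p = 2.36e-05) and differed by 0.19 in CHES-1-like null cells (adjusted p = 0.133). Pvf2 was 1.00 ± 0.10 higher in jumu-deficient cells (limma adjusted p = 5.81e-05), with means of 3.93 and 4.93, both under the background level. Pvf3 differed from control by 0.18 in CHES-1-like null cells (limma adjusted p = 0.117), by −0.15 in jumu-deficient cells (adjusted p = 0.172) and was 0.33 lower in jumu-deficient cells than in those lacking CHES-1-like (adjusted p = 0.00743). Of its 3 other probe sets, 1 was called lower between the mutants.

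Over that list 2 genes rose and 2 fell in jumu-deficient cells, 2 rose and 1 fell in CHES-1-like null cells, and 2 were higher and 6 lower in jumu-deficient cells than in those lacking CHES-1-like. The Grb2 adaptor gene drk rose by 0.44 ± 0.04 (SE) in jumu-deficient cells (limma adjusted p = 1.39e-05). The MAPK kinase gene Dsor1 fell in both mutants, by 0.29 ± 0.05 and 0.23 ± 0.05 (limma adjusted p = 0.00127 and 0.00496). The exchange factor gene Vav rose by 0.31 ± 0.04 in CHES-1-like null cells (limma adjusted p = 0.00035), and its 1 other probe set was not called higher.

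The imaginal disc growth factors are relatives of chitinases, and all 15 listed genes of this family besides Idgf6 were measured. In jumu-deficient cells 8 rose and 2 fell, in CHES-1-like null cells 7 rose and 4 fell, and between the mutants 7 were higher and 2 lower in jumu-deficient cells. Median differences were 0.30, 0.14 and 0.15. In each comparison 2 of the called genes had both means under the background level. Idgf2 was at nearly the same level in both mutants, as Pvr was, with signals of 8.36, 8.30 and 8.24 in control, 9.33, 9.31 and 9.31 in CHES-1-like null cells and 9.40, 9.40 and 9.42 in jumu-deficient cells. It rose by 1.02 ± 0.04 (SE) in CHES-1-like null cells and 1.11 ± 0.04 in jumu-deficient cells (limma adjusted p = 3.67e-07 and 9.13e-08), and the mutants differed by 0.09 ± 0.04 (adjusted p = 0.142).

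Idgf4 followed Idgf6, with a control mean of 9.04, a CHES-1-like null mean of 9.32 and a jumu deficiency mean of 10.05. Its rise was 1.01 ± 0.05 (SE) in jumu-deficient cells (limma adjusted p = 4.02e-07) and 0.29 ± 0.05 in CHES-1-like null cells (adjusted p = 0.00166). Idgf3 rose by 0.79 ± 0.05 in jumu-deficient cells (limma adjusted p = 1.77e-06), and its second probe set differed by 0.06 (adjusted p = 0.544). Idgf1 was higher by 0.46 in jumu-deficient cells and 0.23 in CHES-1-like null cells (limma adjusted p = 0.000962 and 0.0433), with means under the background level in control and the CHES-1-like null. Idgf5 was higher by 0.38 in jumu-deficient cells (limma adjusted p = 0.00697), with its means under the background level. Without control replicate 1 the family held 7 genes called in CHES-1-like null cells in place of 11, and with centring 4 rose and 4 fell there.

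Fat body cells are the other main source of collagen IV in the fly. Whether they supplied it at the embryonic stage used here was not measured. The fat body genes Lsp2, Fbp1 and Fbp2 were under the background level in every group. Of 23 listed fat body genes 18 were measured, and 5 rose and 1 fell in jumu-deficient cells, 4 rose and 5 fell in CHES-1-like null cells, and 7 were higher and 4 lower in jumu-deficient cells than in those lacking CHES-1-like. The apolipoprotein gene apolpp had signals of 10.72, 10.61 and 10.68 in control, 10.10, 10.09 and 10.05 in CHES-1-like null cells and 11.58, 11.68 and 11.57 in jumu-deficient cells. Its groups did not overlap and stood in the order of Glt and prc. It rose by 0.94 ± 0.05 (SE) in jumu-deficient cells and fell by 0.59 ± 0.05 in CHES-1-like null cells (limma adjusted p = 5.1e-07 and 1.56e-05). Apoltp, which encodes the lipid transfer particle, rose by 0.68 ± 0.05 and fell by 0.73 ± 0.05 (limma adjusted p = 4.04e-06 and 3.68e-06).

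Mtp, whose product loads these lipoproteins with lipid, fell in both mutants, with these genes in CHES-1-like null cells and against them in jumu-deficient cells, by 1.05 ± 0.04 (SE) in jumu-deficient cells and 0.36 ± 0.04 in CHES-1-like null cells (limma adjusted p = 1.11e-07 and 0.000165). The lipid droplet gene Lsd-1 rose by 0.29 ± 0.06 and fell by 0.44 ± 0.06 in the same order (limma adjusted p = 0.00594 and 0.000597). The nuclear receptor gene Hnf4 was among the 4 genes that rose in CHES-1-like null cells, by 0.51 ± 0.04 (limma adjusted p = 2.1e-05). LpR2 was called higher in jumu-deficient cells with both means under the background level. The same held in CHES-1-like null cells for Fbp1 and LpR1, 2 of the 4 genes called higher there. The summed log2 signal of the list was 14.06 to 14.10 in control, 13.97 to 14.05 in CHES-1-like null cells and 14.16 to 14.22 in jumu-deficient cells.

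Among 21 measured of 23 listed pericardial and cardioblast genes other than prc, 7 rose and 2 fell in jumu-deficient cells and 7 rose and 3 fell in CHES-1-like null cells. Between the mutants 7 were higher and 5 lower in jumu-deficient cells. Of the cardiac mesoderm's T-box genes, Doc1, Doc2 and Doc3 rose by 0.39 ± 0.05, 0.35 ± 0.06 and 0.47 ± 0.05 (SE) in jumu-deficient cells, against a difference of 2.01 for prc. The T-box genes mid and H15 differed there by −0.04 and 0.09 and were not called (limma adjusted p = 0.69 and 0.511). H15 was under the background level in every group. The median difference of the list in jumu-deficient cells was 0.025, against 0.013 for all genes. Ndae1, a sodium-driven anion exchanger gene, rose by 0.46 ± 0.05 there (limma adjusted p = 9.07e-05), and its 1 other probe set was not called higher. The 2 list genes that fell in jumu-deficient cells were odd and lbl. They differed from control by −0.22 and −0.39 (limma adjusted p = 0.0484 and 0.00177), and the lbl mean there, 5.22, was under the background level. In CHES-1-like null cells both were higher than control, by 0.34 and 0.25 (limma adjusted p = 0.00728 and 0.0228). The heart and muscle regulator genes Him and Hand fell by 0.47 ± 0.04 and 0.50 ± 0.07 in CHES-1-like null cells (limma adjusted p = 2.11e-05 and 0.000354), and in jumu-deficient cells Hand was 0.22 ± 0.07 higher (adjusted p = 0.0262). Among the genes that rose in CHES-1-like null cells were the GATA gene pnr, by 0.47 ± 0.04, and Doc3, by 0.35 ± 0.05 (limma adjusted p = 2.59e-05 and 0.000466). With each array centred on its median, 4 of the list were higher and 2 lower in jumu-deficient cells.

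Of 17 listed genes for matrix receptors and the adhesion complex inside the cell 16 were measured, and 4 rose and 3 fell in jumu-deficient cells and 2 rose and 3 fell in CHES-1-like null cells. Between the mutants 3 were higher and 1 lower. The integrin alpha gene if, called inflated, rose by 0.43 ± 0.06 (SE) in jumu-deficient cells (limma adjusted p = 0.000275). Itgbn, an integrin beta gene, fell by 0.63 ± 0.09 in CHES-1-like null cells and rose by 0.40 ± 0.09 in jumu-deficient cells (limma adjusted p = 0.000625 and 0.00788). The paxillin gene Pax, of the adhesion complex, had signals of 9.68, 9.68 and 9.66 in control, 9.69, 9.64 and 9.63 in CHES-1-like null cells and 8.65, 8.51 and 8.53 in jumu-deficient cells. It fell by 1.11 ± 0.05 in jumu-deficient cells (limma adjusted p = 1.55e-07), the opposite sign to the collagen genes.

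Markers of other tissues moved with the groups as well. Of 14 measured epidermis and trachea markers 13 rose and 1 fell in CHES-1-like null cells, and 1 rose and 6 fell in jumu-deficient cells. Their summed log2 signal was 13.77 to 13.78 in control, 14.33 to 14.35 in CHES-1-like null cells and 13.58 to 13.60 in jumu-deficient cells. The marker that rose in jumu-deficient cells was btl, by 1.73 ± 0.07 (SE, limma adjusted p = 9.04e-08), against the direction of the sum. In CHES-1-like null cells btl rose by 0.88 ± 0.07 (limma adjusted p = 1.1e-05). For 13 neural and glial markers, 8 rose and 0 fell in CHES-1-like null cells by limma (1 lower at an unadjusted p under 0.05) and 3 rose and 7 fell in jumu-deficient cells, with sums of 14.08 to 14.10, 14.21 to 14.26 and 13.91 to 14.06. With quantile normalization the neural and glial counts in jumu-deficient cells were 4 higher and 4 lower, and with centring those in CHES-1-like null cells were 5 higher and 1 lower. Endoderm and salivary gland markers summed to 11.28 to 11.31, 11.72 to 11.76 and 11.18 to 11.19, and germ cell markers to 11.11 to 11.17, 11.21 to 11.29 and 10.74 to 10.90. Of 6 measured germ cell markers 2 rose and 1 fell in CHES-1-like null cells. In jumu-deficient cells 0 rose and 4 fell, which were AGO3, aub, krimp and bam. The germ cell marker vas was under the background level in every group, and vas and tud were not called. The 9 mesoderm markers summed to 13.90 to 13.95 in control, 13.69 to 13.72 in CHES-1-like null cells and 13.90 to 13.96 in jumu-deficient cells, and 6 rose and 2 fell in jumu-deficient cells. The sums of the non-mesodermal lists were thus highest in CHES-1-like null cells and lowest in jumu-deficient cells. The part of these shifts in the levels of vkg, Col4a1, Glt, Idgf6, prc and Pvr was not tested.

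**Figure D4:**
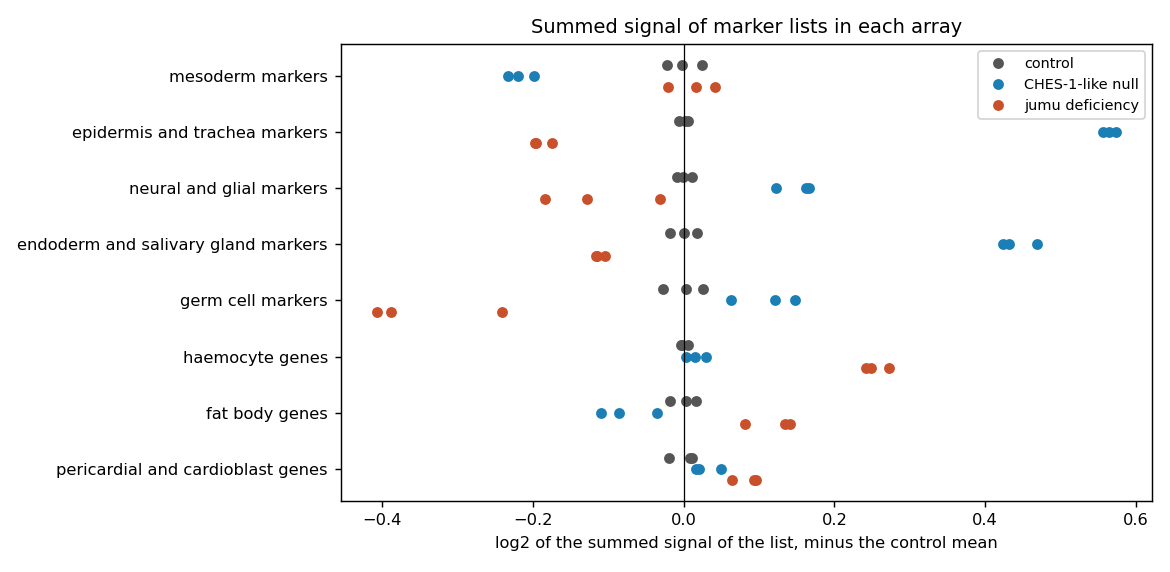
Log2 of the summed signal of each tissue marker list and of the haemocyte, fat body and pericardial lists, minus the list's control mean (horizontal axis). Points are the 9 arrays, coloured by group, and the line at 0 is the control mean. For the haemocyte and fat body lists the jumu deficiency arrays lie right of all other arrays, and for the epidermis and trachea list the CHES-1-like null arrays do.

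The 3′ minus 5′ signal of the array's control transcripts, a measure of RNA quality and labelling, was compared between the groups. For actin it was 1.04 ± 0.01 (SD, n = 3) in control, 0.94 ± 0.06 in CHES-1-like null cells and 1.26 ± 0.03 in jumu-deficient cells. For eIF-4a it was 1.07 ± 0.07, 1.15 ± 0.05 and 1.35 ± 0.03. For GAPDH it was 0.34 ± 0.09, 0.08 ± 0.25 and 0.42 ± 0.16, and the jumu deficiency range of 0.25 to 0.56 overlapped the control range of 0.28 to 0.45. The jumu deficiency arrays, which were highest for vkg, Col4a1, Glt, Idgf6 and prc, thus had the largest actin and eIF-4a differences, and the part of this in the levels of the 6 genes was not tested.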

How the data were processed

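Total RNA of sorted cells was measured on 9 arrays, 3 per group, and groups were taken from the sample titles. The authors deposited log2 signals per probe set, shown by their range of 2.99 to 14.89, which had been made with the R package affy, per the submitters' processing notes (version, background correction and summary method not given in the sources used here). Such signals saturate at the top and flatten near background, which understates differences of dim genes, and no level is compared between genes. The number of arrays limits the precision. After 183 array controls were left out, the 18769 others entered 1 limma fit (limma 3.58.1, R 4.3.3; lmFit, eBayes, Benjamini-Hochberg adjustment over all of them) of group means over all 9 arrays. The fit was tested on simulated data. Genes were named from the platform annotation, with 13647 probe sets having 1 gene, 402 several and 4720 unlisted, and symbols were updated through Release 6 plus ISO1 MT; only probe sets with 1 gene were named. Multi-probe genes are given by their brightest probe set. The members and the 8 lists and 5 marker lists were chosen with earlier results of these data known. Candidates for naming were up to 4 called genes of smallest p per list and comparison, and the 3 nearest profiles of each of the 6 genes. Only some of these are described in the text, and Fit2, PH4alphaSG2 and Cht10 are among those left out. Every measured Pvf, Idgf, laminin and prophenoloxidase gene is given. Tango1, srp, NimC3, Tep4, Hml, eater, He, odd, Pdi, Fbp1 and LpR1 were added after their values were seen. So were gcm, gcm2, ush, crq, drpr, mid, H15, Lsp2, Fbp2, vas and tud. Alternatives were normalization, a filter on dim probe sets, the replicate block, the samples fitted, the variance model, array weights, the threshold, the mean over probe sets and leaving out each array.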

Additional observations from a re-analysis of the deposited data

How the results depend on the processing

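The differences of vkg, Col4a1, Glt, Idgf6 and prc kept their sign in all 3 comparisons under every alternative tried, and so did those of Pvr from control. The difference of Pvr between the mutants, −0.015, became 0.006 with quantile normalization and lay between −0.033 and 0.003 when 1 array was left out, the latter without CHES-1-like null replicate 3. In the jumu deficiency against control the ranges over alternatives were 1.52 to 1.62 for vkg, 1.12 to 1.20 for Col4a1, 1.46 to 1.55 for Glt, 1.22 to 1.31 for Idgf6, 1.94 to 2.06 for prc and 0.46 to 0.54 for Pvr. Counts of list genes called against control in the CHES-1-like null moved as follows. The Pvr ligand list went from 3 to 5 with quantile normalization and 6 with array weights, the basement membrane list from 7 to 11 with a variance trend and robust estimation, the collagen folding list from 7 to 4 with centring and 4 at the stricter threshold of 0.01, and the Idgf and chitinase family from 11 to 6 at that threshold and 7 to 11 when 1 array was left out. Between the mutants the folding list went from 12 to 7 with centring, 7 with only the groups compared and 6 at the stricter threshold, and the Idgf and chitinase family from 9 to 5 at the stricter threshold. The cause was not tested, save that a stricter threshold calls fewer genes by construction. Centring took the share of called probe sets that were higher from 48.5% to 39.4% in the CHES-1-like null, from 46.1% to 31.4% in the jumu deficiency and from 49.1% to 43.8% between the mutants. No other total of list genes called, higher and lower together, moved by over 1.5 times, but with centring the genes called higher went from 8 to 5 for haemocyte genes in CHES-1-like null cells, and in jumu-deficient cells from 14 to 9 in the folding list and from 7 to 4 in the pericardial list. Same-numbered arrays had deviations that correlated at −0.136 to 0.15, and arrays of unlike number at −0.249 to 0.211. Not every array correlated best with its own number. Correlations this weak cannot decide whether the numbers pair the arrays, and the main fit used no pairing. With the replicate block, 5005, 5582 and 6085 probe sets were called in the CHES-1-like null, the jumu deficiency and between the mutants, in place of 5442, 6035 and 6464.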
